A study of Mus musculus with 115 samples.

Results

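Genes for 9 cell-surface antigens that have been studied as targets in prostate cancer were followed across mouse prostate samples: Psca, Steap1, Steap2, Steap4, Folh1, Epcam, Cd24a, Prom1 and Cd44. They were chosen by name, matched to mouse Ensembl identifiers, and are 9 of the 45699 genes in the table. Their levels are given over all samples and against 2 reference genes, Chga and Tgm4. Bulk RNA was sequenced from 115 samples labelled as prostate tumor tissue, 1 per mouse label, in 1 group: transgene-positive F2 offspring of a cross of TRAMP with WSB/EiJ. The paper describes fewer RNA samples than the table holds and does not say which, so all 115 were used. The labels W7822 and W78022 are nearly alike, and whether they are the same mouse is not known. The authors took RNA from the ventral lobe where a prostate was small, and the labels do not say for which samples. The paper took organ weight as tumor burden without checking pathology, citing earlier work that linked weight to cancer. How much tumor each sample held is therefore not known. TRAMP mice carry the SV40 T antigen under the androgen-responsive minimal probasin promoter, which acts in prostate epithelium, while WSB/EiJ descends from wild-caught mice. The labels give no age, tumor burden or genotype at other loci for a mouse, so none could be used. Values are in TPM (a share of transcripts, scaled by transcript length and to the same total in every sample), and the files give no read counts, so the depth of each sample cannot be taken from them.

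Several of these antigens are the targets of antibodies, conjugates or engineered T cells in prostate cancer. Psca and Folh1 (prostate-specific membrane antigen) were named for their prostate expression in humans, the Steap proteins are membrane metalloreductases, and Epcam, Cd24a, Prom1 and Cd44 are surface glycoproteins also used to sort epithelial cells with stem-like properties. Chga encodes chromogranin A, a protein of neuroendocrine secretory granules, and Tgm4 encodes a transglutaminase secreted by the mouse prostate under androgen control. TRAMP tumors include both glandular and neuroendocrine growths.

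The samples did not form 1 continuous group. The first principal component of 14613 genes, computed without the 9 antigens and the 2 reference genes, held 48.6% of the variance and separated them into 79 and 36 samples (fall in BIC of 197, Ashman D of 6.11). These are called the larger and the smaller set below; they come from the expression data and not from a condition, and levels are described side by side and not tested between them. Neuroendocrine markers (12 genes, Chga among them) summed to a median of 276 TPM in the smaller set and 2.53 TPM in the larger. The most abundant was Chga in the smaller set, with a median of 57.2 TPM, and Eno2 in the larger, with a median of 1.49 TPM. In the larger set 7 of the 12 had a median under 0.1 TPM, Insm1 and Syp among them. Proliferation markers (10 genes) summed to a median of 747 TPM in the smaller set, where Top2a was the most abundant, and 47.2 TPM in the larger. Prostate secretory markers (12 genes) summed to a median of 68.3 TPM in the smaller set, with Hoxb13 the most abundant, and 12784 TPM in the larger, with Tgm4 the most abundant. Pbsn, the X-linked mouse probasin gene, had a median under 0.1 TPM in the smaller set.

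Some samples stood apart. In the smaller set W1118, W1050, W1915 and W1790 had Chga at 0.15, 1.15, 1.23 and 2.55 TPM, while the other 32 had at least 21.1 TPM. Their luminal keratin Krt8 lay between 369 and 630.5 TPM, above all of the 32, and their Vim, a mesenchymal filament gene, between 135 and 189 TPM. W4419 had the most urothelial marker RNA of the smaller set and W4517 the most Tgm4. In the larger set W5000 to W5005, which are 6 samples numbered in a run, had Mki67 at or under 0.93 TPM, and the 20 genes with the largest share took 73.2% to 78.0% of their TPM. Over all samples that share ran from 48.9% to 81.8%. W4548 had the highest Vim of all samples, 294 TPM, and the highest fibroblast, endothelial and leukocyte marker sums. W1154 had the lowest Tgm4 of all samples, 0.64 TPM.

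The order of the median levels over all 115 samples ran from Cd24a through Epcam, Prom1, Psca, Cd44, Steap2, Steap4 and Steap1 to Folh1. Cd24a exceeded Epcam in 98 of 115 samples, Epcam exceeded Prom1 in 105 and Prom1 exceeded Psca in 107. Psca and Cd44 were near each other over all samples (mean log2 difference of 0.15, SD 1.93), but Psca exceeded Cd44 in 60 of the 79 samples of the larger set (mean of 0.96, SD 1.35) and had the lower median in the smaller. Steap2 and Steap4 did not differ beyond their spread (mean of -0.17, SD 1.14, with Steap2 higher in 53 of 115). Folh1 was the lowest, below Steap1 in 103 samples. Among the 39073 genes listed above 0 in some sample, the median of Cd24a was above 99.5%, that of Epcam above 99.2% and that of Prom1 above 98.0%. The median of Folh1 was above 48.9%, so the antigens reach from the middle to the top of the range of expression. The order of the smaller set differed below Prom1, with Steap2 next and Psca above Folh1 alone.

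**Figure D1:**
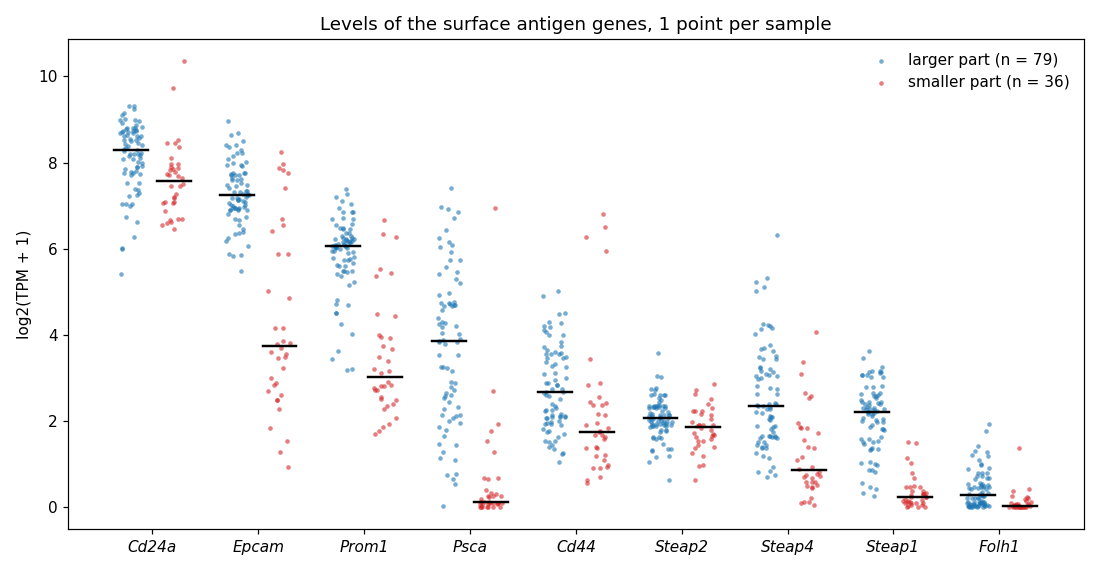
Levels of the 9 antigen genes as log2(TPM + 1), 1 point per sample, for the larger set (79 samples) and the smaller set (36 samples), with bars at the medians. Cd24a and Steap2 overlap widely between the sets. For Epcam and Prom1 most samples of the smaller set lie under the median of the larger, with a few high points. For Psca only W4419 lies above that median, and for Steap1 no sample of the smaller set does.

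Psca encodes a small GPI-anchored protein of the Ly6 family (ENSMUSG00000022598, chromosome 15 from 74714839 to 74717069, GRCm38, the build of all positions here). Its level had a lowest value of 0.02 TPM, a median of 13.4 and a highest of 168 in the larger set, and 0, 0.085 and 123 TPM in the smaller. Over both sets 80 of 115 samples reached 1 TPM and 7 were listed at 0. The highest samples were W242 at 168 TPM and W4292 at 124 TPM of the larger set and W4419 at 123 TPM of the smaller, where the next sample was W4437 at 5.46 TPM. In bulk RNA, fewer cells of a type and less RNA per cell cannot be told apart, which holds for every level here.

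The Steap genes encode membrane proteins that reduce iron and copper, except that Steap1 lacks the domain that binds NADPH. Steap1 (ENSMUSG00000015652, chromosome 5 from 5736317 to 5749326) had a lowest value of 0.19 TPM, a median of 3.61 and a highest of 11.3 in the larger set, and 0, 0.175 and 1.84 TPM in the smaller. Steap2 (ENSMUSG00000015653, chromosome 5 from 5664829 to 5694578) had 0.55, 3.17 and 11 TPM in the larger set and 0.55, 2.64 and 6.21 TPM in the smaller. The sets overlapped over most of their ranges for Steap2, and 111 of 115 samples reached 1 TPM. Steap4 (ENSMUSG00000012428, chromosome 5 from 7960457 to 7982213) had a lowest value of 0.62 TPM, a median of 4.11 and a highest of 79.2 in the larger set, and 0.04, 0.805 and 15.9 TPM in the smaller. Its highest samples were W4548 and W4126 in the larger set, and in the smaller set W1118 and W1790, which are among the 4 with little Chga. Steap3, the family member that is not among the antigens, had a median of 1.51 TPM in the larger set and 0.645 TPM in the smaller. W4183 had the most Steap1 of all samples and came next to W4548 for Steap2.

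Folh1 encodes glutamate carboxypeptidase II, the target of small-molecule and antibody agents in human prostate cancer (ENSMUSG00000001773, chromosome 7 from 86718977 to 86775943). It had a lowest value of 0 TPM, a median of 0.21 and a highest of 2.79 in the larger set, and 0, 0.02 and 1.61 TPM in the smaller. Only 10 of 115 samples reached 1 TPM and 18 were listed at 0, so Folh1 was low in both sets and the sets overlapped. Folh1 was the 1 antigen of 9 with a mean under 1 TPM, and so it was not among the 8 tested below. Without that filter its slope on Tgm4 in the larger set was -0.05 ± 0.02 (SE), with an adjusted p of 0.00995 over 36593 genes. Falls were called for 24.2% of the genes in that fit.

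Epcam encodes a homophilic adhesion protein of epithelia (ENSMUSG00000045394, chromosome 17 from 87635979 to 87651129). Its level had a lowest value of 44.0 TPM, a median of 152 and a highest of 500 in the larger set, and 0.91, 12.4 and 302 TPM in the smaller. The smaller set was spread from nearly none to the level of the larger set: its 5 highest samples were the 4 with little Chga and W4419. Cd24a encodes a heavily glycosylated GPI-anchored protein (ENSMUSG00000047139, chromosome 10 from 43578284 to 43584265), with a lowest value of 41.6 TPM, a median of 310.4 and a highest of 634 in the larger set, and 87.1, 189.8 and 1308 TPM in the smaller. The sets overlapped widely, and Cd24a stayed abundant in every sample. Within the smaller set W1182 at 1308 TPM and W992 at 852 TPM were above all samples of either set, and the next was W370 at 369 TPM. In that set Cd24a exceeded Epcam in 33 of 36 samples.

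Prom1 encodes a pentaspan protein of membrane protrusions, also known as CD133 (ENSMUSG00000029086, chromosome 5 from 43993620 to 44102032). Its level had a lowest value of 8.09 TPM, a median of 66.0 and a highest of 166 in the larger set, and 2.25, 7.08 and 100 TPM in the smaller. W1915, W1050, W1118, W4419 and W1790 were the highest of the smaller set, the same 5 samples as for Epcam. Cd44 encodes a receptor for hyaluronan (ENSMUSG00000005087, chromosome 2 from 102811141 to 102901665) and had a lowest value of 1.06 TPM, a median of 5.35 and a highest of 31.4 in the larger set, and 0.47, 2.36 and 111 TPM in the smaller. W1915, W1790, W1050 and W1118 had Cd44 at 111, 89.0, 76.4 and 60.3 TPM. They exceeded every other sample of both sets, since the remaining 32 of the smaller set were at or under 9.82 TPM and the larger set at or under 31.4 TPM.

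Prom1 and Tgm4 share exon sequence with a neighbour on the opposite strand. For Prom1 these are 424 bases (5.91% of its exon bases) with Gm16401, which had a median of 0.570 TPM, and for Tgm4 (ENSMUSG00000025787, chromosome 9 from 123034726 to 123067561) 830 bases (18.2%) with Zdhhc3, at a median of 24.1 TPM. Tgm4 also shares 307 bases (6.74%) with Gm49323 on its own strand, which is not in the table. Cd24a has a near-identical copy, Gm6212, at 96.8% identity over 12.0% of the Cd24a transcript. The copy is not in the table, and the other related gene, Gm15352, had at most 2.28 TPM. Chga (ENSMUSG00000021194, chromosome 12 from 102554969 to 102565028) has no such overlap or copy.

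The larger set held a wide range of Tgm4, with a lowest value of 0.64 TPM, a median of 7050.1 and a highest of 16895, and some antigens followed it. Cd24a, Steap1 and Prom1 rose with Tgm4 over the 79 samples, and Cd44 and Steap4 fell. Slopes are in log2 units of an antigen per log2 unit of Tgm4, from limma on log2(TPM + 1), with p adjusted over all genes tested and called under 0.05. A rise with Tgm4 was called for 3 of 8 antigens, where 12.2% of the 14622 genes tested were called, and a fall for 2 of 8, where 26.7% were. The count of falls is near that share, and how the count of rises stands depends on the scaling: rises were called for 24.2% of genes with TPM rescaled without the 20 genes of largest share and for 29.1% with median-of-ratios scaling. Cd24a had a slope of 0.23 ± 0.02 (SE, n = 79, adjusted p = 1.20e-16), the place 86 from the highest among 14622 genes by its limma statistic. W5003 and W1154, which had the least Tgm4 of the set (10.5 and 0.64 TPM), had its lowest Cd24a, 41.6 and 63.2 TPM. Cd24a varied among other samples with less Tgm4: 76.7 TPM in W4548 (Tgm4 at 23.8 TPM) and 365 TPM in W4434 (Tgm4 at 177 TPM). Steap1 had a slope of 0.15 ± 0.03 (adjusted p = 6.35e-06) and Prom1 of 0.14 ± 0.03 (adjusted p = 4.08e-04). Cd44 had a slope of -0.16 ± 0.03 (adjusted p = 8.49e-05) and Steap4 of -0.16 ± 0.04 (adjusted p = 0.00217). Psca, Epcam and Steap2 did not pass, with slopes of -0.15, -0.01 and -0.02 and adjusted p of 0.0636, 0.782 and 0.527. Psca passed without W4548 (-0.18 ± 0.07, adjusted p = 0.0370), and without W1154 and W5003 all 8 antigens passed, with Psca at -0.28, Epcam at -0.08 and Steap2 at -0.07. Falls were then called for 55.6% of all genes, and their median slope was -0.05, so the added falls came with a shift over all genes. Without W5000 to W5005 the same 5 antigens passed as with them.

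**Figure D2:**
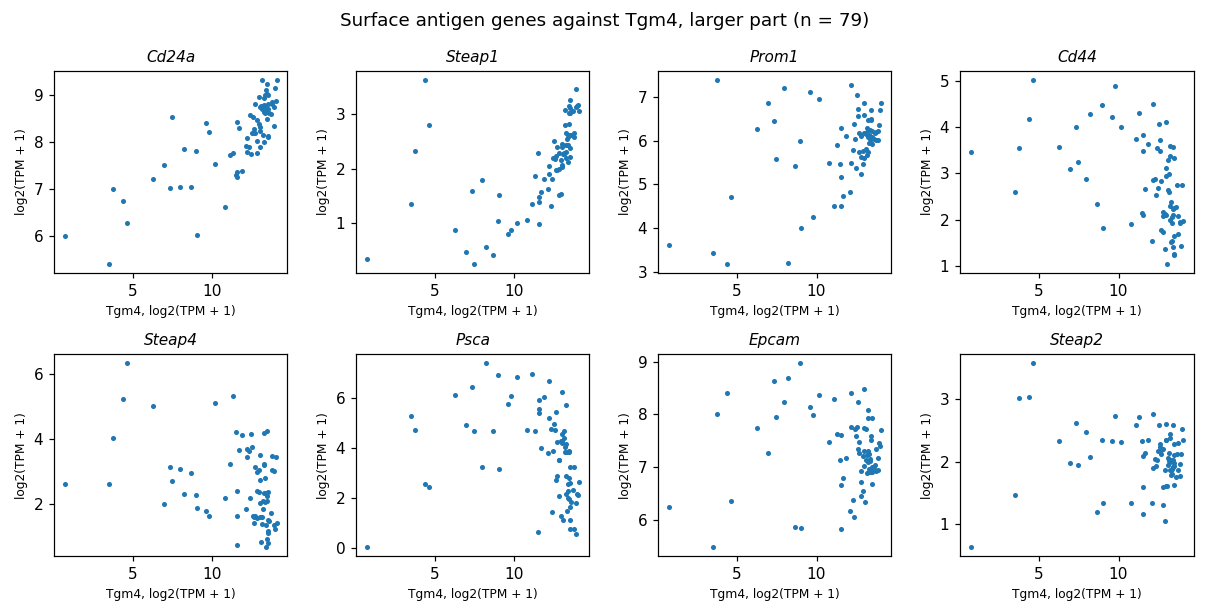
The 8 tested antigen genes against Tgm4 in the larger set, both axes as log2(TPM + 1), 1 point per sample (79 samples). Most points crowd at high Tgm4, where Steap1 and Cd24a climb steeply and Psca and Cd44 decline, while the samples with less Tgm4 are scattered.

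Tgm4 itself separated within the larger set into 59 samples from 2901 TPM up and 20 samples from 2469 TPM down, so correlations are given within each, as part of 63 relations of 9 antigens with a reference gene (two-sided permutation tests). In the 59 samples Steap1 had the closest relation with Tgm4, with r = 0.801 and rho = 0.830, each with p = 1e-05, the smallest that the permutations can give. Without the 2 samples farthest from the median of Tgm4 it was r = 0.822. Cd24a had r = 0.712 and rho = 0.643 (p = 1e-05 for both), and r = 0.647 without the 2 farthest samples. Psca went the other way, with r = -0.527 (p = 2.00e-05) and rho = -0.566 (p = 1e-05), and r = -0.623 without the 2. Prom1 had r = 0.433 (p = 5.70e-04) and rho = 0.313 (p = 0.0162), and 0.371 without the 2, and Cd44 had r = -0.391 (p = 0.00207) and rho = -0.422 (p = 9.80e-04), and -0.472 without the 2. Over all genes tested in the 59 samples, the limma slopes of these 5 antigens passed: Steap1 at 0.66 ± 0.07 (adjusted p = 2.83e-12), Cd24a at 0.54 ± 0.07 (adjusted p = 1.04e-08), Psca at -1.27 ± 0.26 (adjusted p = 1.58e-04), Prom1 at 0.35 ± 0.09 (adjusted p = 0.00318) and Cd44 at -0.49 ± 0.15 (adjusted p = 0.00840). Steap4 did not, at -0.39 ± 0.19 (adjusted p = 0.111). Rises were called for 19.5% of all genes there and falls for 16.3%. In the 20 samples with less Tgm4, limma called 0 of 8, and 2 (Psca and Cd24a) had an unadjusted p under 0.05, but only 0.205% of all genes were called for a rise and 0.0137% for a fall. There Cd24a had r = 0.587 (p = 0.00637) and rho = 0.534 (p = 0.0164), and Psca had r = 0.605 (p = 0.00465) and rho = 0.408 (p = 0.0764). Without W5003 and W1154 these were r = 0.367 and r = 0.456, so both rest in part on those samples. Steap1, which had the closest relation in the 59, had r = -0.228 (p = 0.334) and rho = -0.035 (p = 0.885) in the 20, and r = -0.515 without W5003 and W1154, the opposite sign. Fits within these clusters of Tgm4 were chosen after seeing the data.

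The other prostate secretory markers did not all go with Tgm4 in the larger set: of 9 tested, 3 rose, Azgp1 and Hoxb13 among them, and 4 fell (Abo, Msmb, Sbp and Spink1). In the 59 samples 2 rose and 5 fell, with a median slope of -1.07, so Tgm4 does not stand for the whole list. Markers of other cells moved with Tgm4 too. Leukocyte markers (11 genes) fell with Tgm4 for 8 of 8 tested, from a list whose sum had a median of 92.0 TPM with Lyz2 the most abundant. Fibroblast markers (8 genes) fell for 7 of 8, with a summed median of 284 TPM and Dcn the most abundant, and endothelial markers (5 genes) fell for 4 of 5, all but Emcn, with a summed median of 17.2 TPM and Emcn, which rose, the most abundant. Skeletal muscle markers fell for 4 of 5. Smooth muscle markers went the other way and rose for 4 of 8 (Actg2, Cnn1, Des and Tagln), and for 1 of 8, Cnn1, without W1154 and W5003. Within the 59 samples falls were called for 1 of 8 leukocyte, 3 of 8 fibroblast, 1 of 5 endothelial and 4 of 5 skeletal muscle markers, and none of the smooth muscle rises was called. There falls were also called for 3 of 4 tested urothelial markers, 7 of 10 neuroendocrine markers, Chga among them, and 4 of 8 seminal vesicle markers. Psca, which fell in the 59 samples, had r = 0.58 with the urothelial and 0.51 with the neuroendocrine index over the larger set. Steap4 had r = 0.863 with the endothelial index (the mean z-score of a list), 0.703 with the leukocyte index and 0.678 with the fibroblast index, and 0.843, 0.655 and 0.616 without W4548, left out after seeing the data. With a leukocyte covariate the falls of Cd44 (-0.06 ± 0.03) and Steap4 (-0.04 ± 0.04) were not called and the 3 rises were. In that fit falls were called for 7.07% of all genes and rises for 39.3%, and the median slope was 0.02. With fibroblast and smooth muscle covariates the fall of Steap4 was not called (-0.03 ± 0.05), where falls were called for 18.2% of all genes. W4548, highest in the fibroblast, endothelial and leukocyte sums but not in smooth muscle, had Steap4 at 79.2 TPM with Tgm4 at 23.8 TPM. Without W4548 the Steap4 slope was -0.13 ± 0.04 (adjusted p = 0.0174). The part of these cells in the slopes was otherwise not tested.

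Chga was low throughout the larger set, with a lowest value of 0.06 TPM, a median of 0.30 and a highest of 4.84. Over the 79 samples Psca and Steap4 rose with Chga and Cd24a fell. A rise was called for 2 of 8 antigens, where 18.7% of 14622 genes were called, and a fall for 1 of 8, where 0.137% were. The count of rises is near the background share, and Cd24a was 1 of 20 genes called for a fall. The number of falls depends on the scaling: 564 genes (3.86%) with rescaled TPM and 1655 (11.3%, against 9.78% for rises) with median-of-ratios scaling. Psca had a slope of 1.62 ± 0.41 per log2 unit of Chga (adjusted p = 0.00254), Steap4 of 0.88 ± 0.28 (adjusted p = 0.0193) and Cd24a of -0.53 ± 0.20 (adjusted p = 0.0461). The Cd24a call lay near the threshold, and without W4548 its adjusted p moved only from 0.0461 to 0.0539. The call was also lost without W5000 to W5005 (-0.38 ± 0.20). In the latter fit rises were called for 39.6% of all genes and their median slope moved from 0.15 to 0.23, with the same 2 antigens called for a rise. Chga separated into 7 samples from 1.19 TPM up and 72 from 0.81 TPM down. The 7 had Psca between 26.0 and 124 TPM, above the median of the set, and Upk1a, a urothelial plaque gene, between 16.3 and 119 TPM.

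No Chga slope was called within those clusters or beside urothelial markers, in fits that called few genes of any kind. Of all genes, rises were called for 0.869% in the 72 samples and for 1.91% with the urothelial index, falls for 0 genes in either, and 0 of 14565 genes were called in the 7. In the 72 samples limma called 0 of 8 antigens, with 0 at an unadjusted p under 0.05, and Psca had r = 0.150 (p = 0.208) and rho = 0.071 (p = 0.557), with r = 0.062 without the 2 farthest samples. In the 7 samples limma called 0 of 8, with 1 (Steap4) at an unadjusted p under 0.05, and Cd24a had a slope of 0.58 ± 0.55, opposite in sign. The urothelial list (6 genes) summed to a lowest value of 1.28 TPM, a median of 87.3 and a highest of 361 in W4360, with Upk1b the most abundant, and 3 of its 4 tested genes (Upk1a, Upk2 and Upk3a) rose with Chga. Psca had r = 0.58 with the urothelial index. With that index as a covariate, chosen after seeing the data, 0 of 8 antigens were called, again 0 at an unadjusted p under 0.05, and the Psca slope was 0.09 ± 0.50. Skeletal muscle markers (5 genes, summed median 114 TPM, Acta1 the most abundant, Myh4 under 0.1 TPM) rose with Chga for 5 of 5, fibroblast markers for 7 of 8, endothelial markers for 4 of 5, basal markers for 3 of 6 tested and smooth muscle markers (8 genes, summed median 1362 TPM, Tagln the most abundant) for 4 of 8. None of these markers was called in the 7 or in the 72 samples alone. Without the 2 samples farthest in Chga, rises were called for 1 of 8 fibroblast and 2 of 8 smooth muscle markers. The skeletal muscle, endothelial and basal counts were unchanged there. Neuroendocrine markers other than Chga rose for 6 of 9 tested over the 79 samples. With fibroblast and smooth muscle covariates limma called 0 antigens, 3 with an unadjusted p under 0.05, with Psca at 1.26 ± 0.43 (adjusted p = 0.0828). In that fit rises were called for 3.81% of all genes and falls for 0.376%. TPM rescaled without the 20 genes of largest share gave 1 call, Psca at 0.86 ± 0.28, where rises were called for 15.7%. It moved the median slope of all genes from 0.15 to 0.04. Median-of-ratios scaling moved that median to -0.03, kept Psca (1.14 ± 0.42) and Cd24a (-0.61 ± 0.23), lost Steap4 (0.48 ± 0.27) and called a fall of Steap2 (-0.22 ± 0.08).

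Chga in the smaller set ran from 0.15 TPM through a median of 57.2 to 479 TPM. Cd44, Prom1 and Epcam fell with Chga over the 36 samples, and none of the 8 rose. A fall was called for 3 of 8 antigens, where 24.2% of 14612 genes were called, and a rise for 0 of 8 by limma, where 9.94% were, with 1 (Cd24a) at an unadjusted p under 0.05. The count of falls is near that share in this fit, but the balance of all genes depends on the scaling. With rescaled TPM 3064 of 14592 genes were called for a rise and 2332 for a fall, so rises outnumbered falls. With median-of-ratios scaling rises were called for 14.7% of all genes and falls for 19.2%. Cd44 had a slope of -0.69 ± 0.09 (n = 36, adjusted p = 2.34e-07), Prom1 of -0.39 ± 0.10 (adjusted p = 0.00307) and Epcam of -0.46 ± 0.17 (adjusted p = 0.0356, and 0.0567 with median-of-ratios scaling). Cd44 had r = -0.791 with Chga (p = 1e-05) and rho = -0.336 (p = 0.0460), and r = -0.675 without the 2 farthest samples. For Prom1 r was -0.537 (p = 0.00119) and rho -0.087 (p = 0.615), and -0.311 without the 2. For Epcam r was -0.403 (p = 0.0141) and rho -0.066 (p = 0.702), and -0.181 without the 2.

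These relations rest on W1118, W1050, W1915 and W1790, the 4 samples with little Chga. The 4 had Epcam between 216 and 302 TPM, against a median of 10.9 in the other 32, and Prom1 between 42.1 and 100 TPM, against a median of 6.09. Their Mki67, a proliferation gene, lay between 54.7 and 74.0 TPM, within the range of the 32. Luminal markers (8 genes) summed to between 1087 and 2003 TPM in the 4 and at most 768 TPM in the 32, and basal markers (7 genes) to between 75.1 and 141 TPM and at most 22.3 TPM. The basal keratin Krt5 did not follow that sum, with a median of 0.0650 TPM both in the 4 and in the 32. Of 6 tested basal markers, 3 fell with Chga over the smaller set (Krt14, Krt17 and Lamb3), where 24.2% of all genes did. The fibroblast sum was between 666 and 2020.2 TPM in the 4, reached by 3 of the 32. The neuroendocrine sum of the 4 was at most 86.7 TPM, under the 142 TPM of the lowest of the 32.

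Without the 4 samples, an alternative chosen after seeing the data, none of the 3 falls was called. Cd44 had a slope of -0.08 ± 0.12 (n = 32, adjusted p = 0.740, r = -0.116), Epcam of 0.49 ± 0.29 (adjusted p = 0.284) and Prom1 of 0.24 ± 0.16 (adjusted p = 0.361). Cd24a rose with Chga in these 32 samples, with a slope of 0.43 ± 0.13 (adjusted p = 0.0341), against 0.16 ± 0.07 (adjusted p = 0.0724) in the 36, where it passed under both other scalings (0.18 ± 0.06 and 0.20 ± 0.07). It was 1 of 8 antigens, where a rise was called for 9.11% of genes in the 32 samples and a fall for 0.198%. Its r was 0.505 (p = 0.00387) and rho 0.376 (p = 0.0337), and r was 0.467 without the 2 farthest samples. The highest samples for Cd24a, W1182 and W992, had Chga at 284 and 291 TPM.

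**Figure D3:**
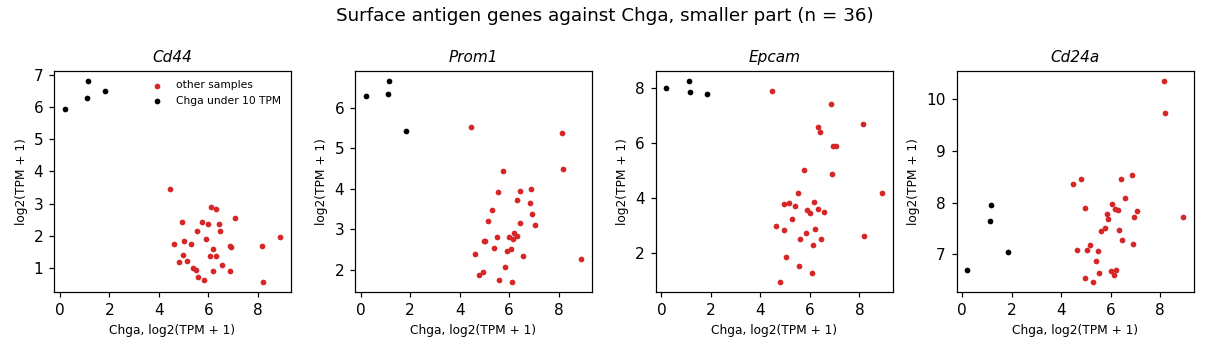
Cd44, Prom1, Epcam and Cd24a against Chga in the smaller set, both axes as log2(TPM + 1), 1 point per sample (36 samples, the 4 with Chga under 10 TPM in black). The 4 black points stand at the upper left for Cd44, Prom1 and Epcam, and the highest Cd24a points lie at high Chga.

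Tgm4 was near its floor in most of the smaller set, with a lowest value of 0.77 TPM, a median of 1.83 and a highest of 2469. A rise with Tgm4 was called for 1 of 8 antigens, Psca, where 2.18% of 14612 genes were called, and a fall for 0 of 8 by limma, where 0.568% were, with 0 at an unadjusted p under 0.05. Psca had a slope of 0.33 ± 0.09 (adjusted p = 0.0311), r = 0.528 (p = 0.0311) and rho = 0.217 (p = 0.201). It rests on W4419, which had Psca at 123 TPM, Tgm4 at 195 TPM, Upk1a at 33.5 TPM and a urothelial sum of 117 TPM against a median of 2.83 TPM in the set, where Upk1b was the most abundant and Upk2 and Upk3b were under 0.1 TPM. Without W4419 the slope was 0.10 ± 0.06 (adjusted p = 0.438, with rises for 1.01% of all genes), and without W4419 and W4517, the 2 samples farthest in Tgm4, it was -0.13 ± 0.12 (adjusted p = 0.665) and r was -0.181. Without the 4 samples with little Chga, also chosen after seeing the data, Psca (0.34 ± 0.09), Steap4 (0.19 ± 0.06) and Prom1 (0.22 ± 0.07) passed, where rises were called for 6.86% of all genes. That fit still holds W4419 and W4517. Smooth muscle markers (summed median 34.2 TPM, Acta2 the most abundant) rose with Tgm4 for 6 of 8 in the smaller set and for 1 of 8 without W4419, and urothelial markers for 3 of 4 tested and 2 of 4. None of these was called without W4419 and W4517. Seminal vesicle markers (8 genes, summed median 5.67 TPM, Svs5 the most abundant, and Svs1, Svs3a and Svs3b under 0.1 TPM) rose with Tgm4 for 4 of 8 in the smaller set, for 0 of 8 without W4419 and W4517, and for 0 of 8 in the larger, where their summed median was 1145 TPM.

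**Figure D4:**
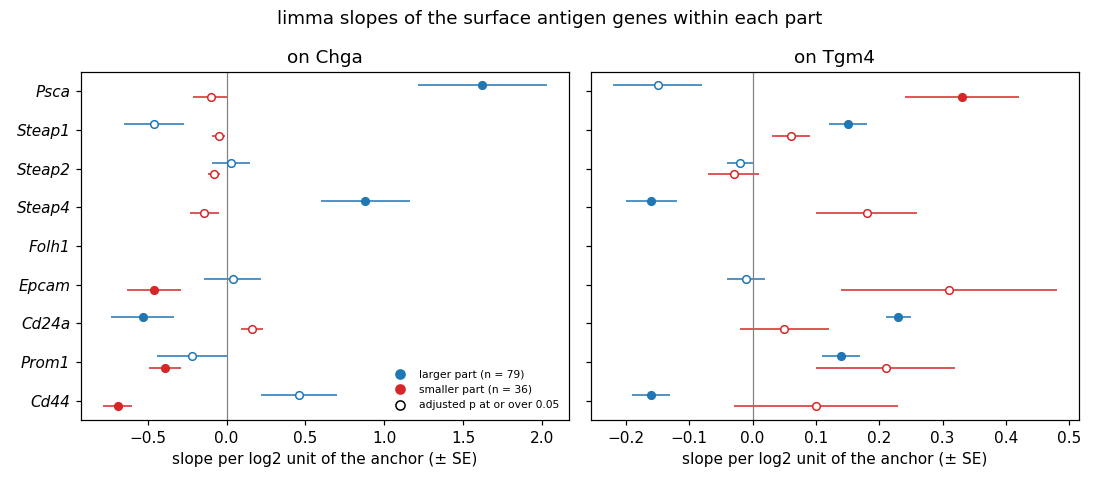
Limma slopes of the 8 tested antigen genes per log2 unit of Chga (left) and Tgm4 (right) within the larger set (79 samples) and the smaller set (36 samples), with bars of 1 SE and filled points where the adjusted p was under 0.05. Psca has its largest slope on Chga in the larger set, 1.62, and Cd44 its most negative on Chga in the smaller, -0.69.

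The slopes were also tested for a difference between the sets. For Chga the slope was more positive in the larger set for 3 of 8 antigens, where 20.9% of 14623 genes were called, and more negative for 1 of 8, where 0.438% were. These shares depend on the scaling: 11.9% and 5.29% with rescaled TPM, and 7.26% and 7.54% with median-of-ratios scaling. Psca differed by 1.72 ± 0.41 (adjusted p = 0.00104), Cd44 by 1.15 ± 0.26 (adjusted p = 5.32e-04), Steap4 by 1.03 ± 0.29 (adjusted p = 0.00590) and Cd24a by -0.69 ± 0.21 (adjusted p = 0.0117). The slopes cover unlike ranges of Chga: 0.06 to 4.84 TPM in the larger set, and at least 21.1 TPM in 32 samples of the smaller. Psca had a median of 0.085 TPM in the smaller set, which left its slope there little room. The fit took the scatter of a gene to be the same in both sets. The part of these limits in the differences was not tested. For Tgm4 the slope was more positive in the larger set for 1 of 8, where 1.57% were called, and more negative for 2 of 8, where 5.10% were. Cd24a differed by 0.18 ± 0.06 (adjusted p = 0.0457), Psca by -0.49 ± 0.14 (adjusted p = 0.0244) and Steap4 by -0.34 ± 0.10 (adjusted p = 0.0222). The ranges of Tgm4 were unlike too, with a median of 7050.1 TPM in the larger set and 1.83 TPM in the smaller. The shares for Tgm4 were 3.84% and 9.57% with rescaled TPM, and 5.74% and 10.3% with median-of-ratios scaling. Steap4 did not pass for Chga under either other scaling (0.57 ± 0.21 and 0.59 ± 0.27). With the urothelial index as a covariate limma called 0 of 8 antigens for either reference gene, with 2 for Chga and 4 for Tgm4 at an unadjusted p under 0.05. Few genes were called at all there: 0.745% and 0.0547% for Chga, and 1.20% and 0.944% for Tgm4. Without W4419 limma called 0 of 8 for Tgm4, with 2 at an unadjusted p under 0.05, and 0.793% and 1.78% of all genes. Without the 4 samples with little Chga, Cd44 and Steap4 no longer passed for Chga. In that fit more positive slopes were called for 6.13% of all genes and more negative for 0.533%.

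Cell type markers within each set are given here as Pearson r of log2(TPM + 1) with the index of a list. In the larger set Epcam had r = 0.88 with the luminal index (8 genes, summed median 914 TPM, Krt18 the most abundant) and 0.74 with the proliferation index. Cd44 had 0.80 with the luminal, 0.77 with the leukocyte and 0.72 with the proliferation index. Psca had 0.70 with the luminal, 0.58 with the urothelial, 0.52 with the skeletal muscle and 0.51 with the neuroendocrine index. Folh1 had 0.69 with the endothelial, 0.61 with the fibroblast, 0.59 with the leukocyte and 0.25 with the smooth muscle index, while Steap1, Cd24a and Prom1 had no r above 0.35 with any index. The most negative r of Cd24a were near each other: -0.43 with the neuroendocrine, -0.39 with the skeletal muscle and -0.38 with the fibroblast index. Those of Steap1 were -0.40 with the neuroendocrine index and -0.39 with both the skeletal muscle and the seminal vesicle index. In this set 7 of the 12 neuroendocrine markers had a median under 0.1 TPM. Steap2 had 0.68 with the luminal and the leukocyte index and -0.75 with the share of TPM in the 20 largest genes. That share also moved with Epcam (-0.73), Cd44 (-0.64), Steap4 (-0.58) and Psca (-0.44), and its part in these correlations was not tested. Basal markers were low in the larger set, with a summed median of 41.4 TPM and Krt15 the most abundant. The luminal list of the smaller set summed to a median of 24.4 TPM, and Epcam had r = 0.93 with its index and 0.89 without the 4 samples. There Cd44 had 0.90 with the basal index, whose Krt5, Krt14, Krt15 and Trp63 had medians under 0.1 TPM, and 0.65 without the 4. Steap4 had 0.79 with the fibroblast index (summed median 232 TPM, Col3a1 the most abundant) and 0.80 without the 4. Psca had 0.708 with the urothelial index and 0.511 without W4419, also left out after seeing the data. Cd24a had its highest r with the neuroendocrine index, which holds Chga, at 0.43 and 0.52 without the 4.

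**Figure D5:**
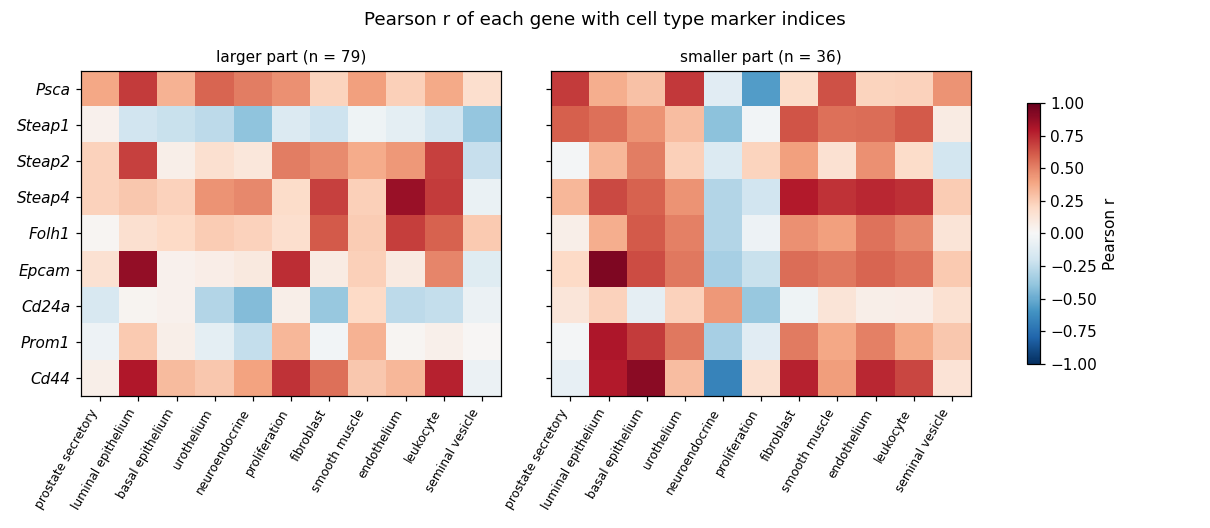
Pearson r of each antigen gene with the cell type marker indices in the larger set (left, 79 samples) and the smaller set (right, 36 samples), as a color scale from -1 to 1. Epcam and Cd44 are darkest at the luminal index in the larger set (0.88 and 0.80) and Steap4 at the endothelial index (0.86).

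Among the antigens themselves, the closest pairs in the larger set were Psca with Cd44 (r = 0.66), Steap4 with Folh1 (0.65), Steap2 with Cd44 (0.63) and Steap2 with Epcam (0.62). Without W4548 these were 0.715, 0.630, 0.590 and 0.728, and Epcam with Cd44 went from 0.580 to 0.649. The order of the pairs therefore depends on that sample. Many genes had as high an r: among 14622 genes Cd44 took the place 420 for Psca but Psca the place 2904 for Cd44, and for Steap2 the places of Cd44 and Epcam were 6057 and 6335. Psca and Steap1 ran opposite, at -0.52, and Cd24a and Prom1 together, at 0.52. Epcam and Prom1 had r = 0.77 in the smaller set, and 0.60 without the 4 samples with little Chga. Steap1 and Steap4 had 0.69, and 0.67 without them, while Cd44 and Prom1 fell from 0.73 to 0.24.

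The genes most like each antigen were sought among all genes tested, by r within a set. In the larger set these were Smim6 for Psca (0.862), Rab38 for Steap1 (0.872), Vwa5a for Steap2 (0.903), Dram1 for Steap4 (0.950) and Twist1, a mesenchymal transcription factor, for Folh1 (0.804). Epcam was closest to Spint2, an inhibitor of membrane serine proteases (0.934), followed by the tricellular junction genes Lsr (0.932) and Marveld2 (0.912). Cd24a was closest to Akr1b3, which encodes aldose reductase (0.880), with Tst (0.873) and the core fucosyltransferase Fut8 (0.872) next. Prom1 had the weakest nearest gene, Frk (0.673), followed by the claudin gene Cldn8 (0.671). Cd44 was closest to the ceramide synthase gene Cers5, to the galectin gene Lgals3 (both 0.909) and to the annexin gene Anxa2 (0.907). In the smaller set Psca was closest to Gsdmc2 (0.952, median 0.03 TPM) and Upk1a (0.945), with 0.854 and 0.890 without W4419, Steap1 to Gjb2 (0.885), Steap2 to Magi3 (0.637) and Steap4 to Lrg1 (0.934) and the haptoglobin gene Hp (0.929). Folh1 was closest there to S100a8 (0.867), which fell to 0.457 without the 4 samples. Epcam was closest to Bik (0.929, and 0.888 without the 4) with the claudin gene Cldn7 at 0.926, Cd24a to Cryba2 (0.787), Prom1 to Ctdsp1 (0.866, and 0.741 without the 4) and Cd44 to Ephb4 (0.965, and 0.786 without the 4).

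Relatives and partners of the antigens, in 8 lists, were counted in the same fits. Against Tgm4 in the larger set, where 12.2% of all genes rose and 26.7% fell, 1 of 14 other tested Ly6 family genes rose (Cd59a) and 8 fell, Ly6a with a median of 67.4 TPM among them (-0.21 ± 0.04), while Ly6e, the most abundant at 297 TPM, did not pass (-0.06 ± 0.03). Of 4 tested partners of Cd24, which include enzymes that build its glycans, Fut8 rose with Tgm4 (0.27 ± 0.02, adjusted p = 5.34e-23, median 36.5 TPM) as Cd24a did, and the sialyltransferase gene St3gal4 fell (-0.14 ± 0.02). Of 19 Epcam partners 1 rose (Cldn4) and 5 fell, Tspan8 among them (-0.14 ± 0.05), and Spint2 did not pass (0.01 ± 0.02). Of 14 hyaluronan and Cd44 genes 8 fell, with the ligand gene Spp1 at -0.23 ± 0.03, and 1 rose, the membrane linker gene Ezr (0.12 ± 0.02). Of 6 genes related to prominins Ezr, which is in both lists, rose and Prom2 (-0.26 ± 0.04) and Pdzk1 (-0.22 ± 0.05) fell, opposite to Prom1. Steap3 fell as Steap4 did (-0.10 ± 0.02). Of 7 relatives of Folh1, folate genes among them, 2 rose, with the folate receptor gene Folr1 at 0.24 ± 0.04, and the transferrin receptor gene Tfrc fell (-0.06 ± 0.02). Of 25 other target antigens 3 rose (Alcam, Itga6 and Slc44a4) and 11 fell. The median slopes of these lists lay between -0.10 for Steap3 alone and -0.01, against -0.02 over all genes tested. These counts depend on the samples. In the 59 samples with more Tgm4, 19.5% of all genes rose and 16.3% fell. There 2 of 14 hyaluronan genes fell and 1 rose, and 3 of 19 Epcam partners fell and 4 rose. Without W1154 and W5003, 7.19% of all genes rose and 55.6% fell. Falls were then called for 12 of 14 hyaluronan genes and 9 of 19 Epcam partners, and rises for 1 and 0.

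Against Chga in the smaller set, where 24.2% of all genes fell and 9.94% rose, 13 of 19 Epcam partners fell and 0 rose, as did 10 of 14 hyaluronan and Cd44 genes, Ezr (-0.33 ± 0.10) and Spp1 (-0.44 ± 0.16) among them. Those shares of all genes, like these list counts, are from the main scaling. With rescaled TPM more genes rose (3064 of 14592) than fell (2332), and with median-of-ratios scaling 19.2% fell and 14.7% rose. Of the 25 other target antigens 15 fell, Bst2 at -0.61 ± 0.12 and Itga6 at -0.20 ± 0.05 among them, and 5 rose: Alcam (0.20 ± 0.04), Kit, Ncam1, Sez6 and Tmeff2. Ly6e fell (-0.48 ± 0.13), as 5 of 14 Ly6 family genes did, and Ly6h rose. Beside Cd24a, the sialyltransferase gene St3gal6 rose (0.48 ± 0.07, median 15 TPM) and Fut8 fell (-0.11 ± 0.04). The falls were not called without the 4 samples with little Chga: 0 genes of these lists fell then, where falls were called for 0.198% of all genes. The 5 rises among the other target antigens were not called either, where rises were called for 9.11%. Vil1 and St3gal6 were among those that rose. Over the 36 samples the median slope was -0.37 for the Epcam partners, -0.24 for the hyaluronan genes and -0.27 for the other antigens, against -0.03 over all genes tested. Without the 4 these medians were 0.16, 0.06 and 0.03, against 0.07. Of the prominin list Ezr and Slc9a3r1 fell, of the Folh1 relatives 1 rose and 2 fell, and Steap3 did not pass (-0.11 ± 0.05). In the larger set, where 18.7% of all genes rose with Chga, rises were called for 5 of 14 Ly6 family genes, 6 of 14 hyaluronan genes, 7 of 25 other antigens, 2 of 19 Epcam partners, 1 of 7 Folh1 relatives, 1 of 6 prominin genes (Prom2) and Steap3, and falls for none of these lists. Limma called 0 of 4 Cd24 partners. In the 72 samples with less Chga, where 0.869% of all genes rose, 2 genes of these lists, Ret and Tmeff2, rose. For Tgm4 in the smaller set 2.18% of all genes rose and 0.568% fell. Rises were called there for 2 of 7 Folh1 relatives (Folr1 and Folr2) and 1 of 14 hyaluronan genes (Lyve1), and 0 genes of the other lists were called. None of the 3 was called without W4419 and W4517, where 0.0274% of all genes rose. Without W4419 alone, where 1.01% rose, Lyve1 was not called and Ly6c2 was. Without the 4 samples with little Chga, where 6.86% of all genes rose, rises were called for 5 of 14 Ly6 family genes, 4 of 19 Epcam partners, 3 of 14 hyaluronan genes, 2 of 6 prominin genes, 2 of 7 Folh1 relatives, 7 of 25 other antigens and Steap3, and a fall for Tfrc.

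Promoter sequences were available from RefSeq (GRCm38.p6, 250 bases before to 50 after the start) for 7 of the 9 antigens. Psca and Cd24a have no entry. Those of Tgm4 and of antigens that rose (Steap1) or fell (Steap4 and Cd44) with it in the larger set are printed. Prom1, which also rose, has 2 windows and is not printed. They lie at chr9:123034491-123034790 (+), chr5:5749268-5749567 (-), chr5:7960222-7960521 (+) and chr2:102901616-102901915 (-), each read 5′ to 3′. Capitals mark matches on either strand to TATAAA (the TATA box), to GGGCGG (the GC box), to CAGCTG (an E-box) and to AGAACA (a half-site of the androgen and glucocorticoid receptors).
Tgm4: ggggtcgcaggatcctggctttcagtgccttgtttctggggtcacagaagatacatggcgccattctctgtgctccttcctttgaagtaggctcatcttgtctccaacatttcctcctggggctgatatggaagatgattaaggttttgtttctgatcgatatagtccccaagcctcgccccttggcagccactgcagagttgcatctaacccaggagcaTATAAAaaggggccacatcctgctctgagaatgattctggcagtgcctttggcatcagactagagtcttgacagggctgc
Steap1: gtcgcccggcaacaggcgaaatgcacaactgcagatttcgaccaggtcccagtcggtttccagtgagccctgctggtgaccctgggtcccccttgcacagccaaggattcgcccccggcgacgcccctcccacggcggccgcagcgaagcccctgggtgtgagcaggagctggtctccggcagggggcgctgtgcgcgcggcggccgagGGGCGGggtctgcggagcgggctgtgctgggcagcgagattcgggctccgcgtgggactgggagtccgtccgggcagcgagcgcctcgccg
Steap4: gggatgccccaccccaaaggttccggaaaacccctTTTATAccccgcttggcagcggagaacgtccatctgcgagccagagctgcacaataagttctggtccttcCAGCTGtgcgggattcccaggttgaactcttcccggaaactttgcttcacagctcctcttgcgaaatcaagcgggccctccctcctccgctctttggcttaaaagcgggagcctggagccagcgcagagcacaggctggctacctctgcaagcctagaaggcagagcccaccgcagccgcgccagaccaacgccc
Cd44: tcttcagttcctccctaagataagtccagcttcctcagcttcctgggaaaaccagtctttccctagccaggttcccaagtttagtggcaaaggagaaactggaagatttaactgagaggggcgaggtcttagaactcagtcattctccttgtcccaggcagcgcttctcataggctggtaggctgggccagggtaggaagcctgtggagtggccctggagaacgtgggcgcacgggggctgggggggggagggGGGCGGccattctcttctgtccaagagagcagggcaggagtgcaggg
Tgm4 and Steap4 each hold 1 match to the TATA box sequence, and Steap4 also holds 1 to the E-box, while Steap1 and Cd44 each hold 1 to the GC box. The Tgm4 match reads TATAAA and lies near the start, while that of Steap4 reads TTTATA, on the opposite strand, near the upstream end of the window. Whether either acts as a TATA box was not tested. None of the 4 windows holds the receptor half-site, while 1 of the 2 windows of Prom1 holds 1 match to it. Of 32851 promoter windows, 13.6% hold the TATA box, 35.7% the GC box, 16.3% the E-box and 19.0% the half-site, so these matches are common. The Steap1 window is 72.3% G and C, against 51.0% for Tgm4.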

How the data were processed

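Bulk RNA sequencing of 115 samples labelled as prostate tumor tissue was used. The authors depleted ribosomal RNA, mapped trimmed reads with Bowtie2 2.2.5 after CASAVA 1.8.2 to a transcriptome carrying the variants of both parental strains (build GRCm38) and quantified genes with RSEM 1.2.20, and the deposited values are TPM. The files hold no read counts, so no count model or counting interval was used. Genes were named and placed from the GRCm38 annotation. Levels are medians and ranges. Slopes on log2(TPM + 1) were fitted with limma 3.58.1 (trend) in R 4.3.3 for genes averaging 1 TPM or more, separately in the 2 sets given by a mixture of 2 normal distributions on the first principal component, with Benjamini-Hochberg adjustment over all genes tested. Correlations used 100000 permutations, or exact permutation for 7 samples. Genes named are the antigens, the 2 reference genes, the 3 genes with the highest r for each antigen (not all are printed) and, from each list of relatives, up to 4 of the most abundant; other genes, and samples that stand apart, were picked once values were known. Members and lists were chosen with earlier results of these data known. Alternatives were another pseudocount, no filter, other scalings, covariates and leaving out samples. Scripts were tested on simulated data. Tools were BLAST+ 2.17.0, scikit-learn 1.9.0, scipy 1.17.1, matplotlib 3.10.9, pandas 2.3.3, numpy 2.4.6 and Python 3.11.15.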

Additional observations from a re-analysis of the deposited data

How the results depend on the processing

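Of 11 alternatives planned for each slope, 10 changed the fit in the larger set and 9 in the smaller, since the rescaled TPM gave the same sets and W78022 lies in the larger. The calls of Cd24a, Steap1 and Prom1 on Tgm4 in the larger set held in all 10, and that of Cd44 on Chga in the smaller set in all 9. In the larger set the call of Cd44 on Tgm4 held in 9 of 10, that of Steap4 on Tgm4 in 8, that of Psca on Chga in 9, that of Steap4 on Chga in 6 and that of Cd24a on Chga in 4. In the smaller set the call of Prom1 on Chga held in 7 of 9 and that of Epcam in 4. The call of Psca on Tgm4 in the smaller set held in 3 of 9. Counts of antigens called, of 8, that moved by more than 1.5 times follow. On Chga in the larger set (3), rescaling without the 20 largest genes or leaving out the 2 farthest samples gave 1 each, and fibroblast and smooth muscle covariates gave 0. In these fits rises were called for 15.7%, 13.9% and 3.81% of all genes, against 18.7% in the main fit. Falls were called for 3.86%, 0.226% and 0.376%, against 0.137%. Chosen after seeing the data, the urothelial covariate and each cluster of Chga gave 0, with Cd24a at 0.58 in the higher cluster, where 0 of 14565 genes were called. Rises were called for 1.91% of all genes with that covariate and for 0.869% in the lower cluster. On Chga in the smaller set (3), 3 alternatives gave 1 each. These were leaving out the 2 farthest, the fibroblast and smooth muscle covariates, and leaving out the 4 samples with little Chga. The last had Epcam at 0.49 and Prom1 at 0.24. Falls were called for 4.61%, 9.20% and 0.198% of all genes in these fits, against 24.2% in the main fit. Rises were called for 3.91%, 7.88% and 9.11%, against 9.94%. For the difference in Chga slopes (4) the same 3 alternatives gave 2 each and the urothelial covariate gave 0. More positive slopes were then called for 8.90%, 2.47%, 6.13% and 0.745% of all genes, against 20.9%. On Tgm4 in the larger set (5), leaving out the 2 farthest gave 8 and the lower cluster alone gave 0, with Steap1 at -0.07. Falls were called for 55.6% and 0.0137% of all genes there, against 26.7%, and rises for 7.19% and 0.205%, against 12.2%. On Tgm4 in the smaller set (1), a pseudocount of 0.1, no filter, leaving out the 2 farthest (Psca at -0.13) and leaving out W4419 gave 0 each. Rises were called there for 1.81%, 0.908%, 0.0274% and 1.01% of all genes, against 2.18% in the main fit. The seminal vesicle, fibroblast and smooth muscle, leukocyte and urothelial covariates also gave 0 each, with rises for 0.356%, 0.376%, 1.25% and 0.315%. Leaving out the 4 samples gave 3, with rises for 6.86%. For the difference in Tgm4 slopes (3), leaving out the 2 farthest, fibroblast and smooth muscle covariates, the urothelial covariate and leaving out W4419 gave 0 each. The leukocyte covariate gave 1 and leaving out the 4 samples gave 5. More positive slopes were called for 0.609%, 8.51%, 1.20%, 0.793%, 12.5% and 3.52% of all genes in these fits, against 1.57%. More negative slopes were called for 0.445%, 1.04%, 0.944%, 1.78%, 0.766% and 10.3%, against 5.10%. Leaving out samples also lowers the number fitted. The causes were otherwise not tested. In the order of median levels, 7 of 9 places were kept under both scalings, and Steap4 and Steap2 changed places. The files hold no read counts, so no counting error is given for low values such as those of Folh1.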
